A study of Marchantia polymorpha with 12 samples.

Results

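The genes described here had no read counted in any of 6 control libraries of the liverwort Marchantia polymorpha and at least 10 reads counted in each of 6 libraries of Polycomb double mutants. Of 19441 genes, 51 met that rule, 12 of them were left out by name, and the other 39 are the members. Plants were thalli, the flat haploid body of the liverwort, aged 14 days. The groups were Mpknox2-1 Mpez1-1 (3 libraries) against Mpknox2-1 of set 1 (3 libraries), and Mpknox2-1 Mpez1-2 (3 libraries) against Mpknox2-1 of set 2 (3 libraries). All 12 libraries thus carry Mpknox2-1, so the controls are single mutants and no plants without that mutation were analysed here. Each Mpez1 allele was profiled in its own set, so allele and set cannot be told apart in any comparison of the double mutants with each other. The labels do not give the lesion of either allele, the number of plants behind a library or the sex of the plants.

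MpE(z)1 encodes an Enhancer of zeste protein, the catalytic subunit of Polycomb repressive complex 2 (PRC2). PRC2 methylates lysine 27 of histone H3, a mark found across genes that are kept off in a given tissue, and plants that lack its activity express genes of other organs or life stages. PRC1, a second Polycomb complex, monoubiquitinates histone H2A through RING1-type proteins and acts together with PRC2. MpKNOX2 is a homeobox gene of class II of the KNOX family, a class that in the moss Physcomitrium acts in the diploid sporophyte, the generation that grows from the fertilised egg.

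MpE(z)1 itself had 80 to 123 counts in the Mpez1-1 libraries against 248 to 360 in the set 1 controls, and 165 to 217 counts in the Mpez1-2 libraries against 344 to 416 in the set 2 controls. It fell by 1.06 on the log2 scale in Mpez1-1 (SE 0.15, edgeR adjusted p = 0.000608) and by 0.78 in Mpez1-2 (SE 0.10, edgeR adjusted p = 3.36e-05). Gene counts summed to between 7019900 and 9453281 per double mutant library and between 9765787 and 12098548 per control library, so the libraries in which the members were at 0 were the deeper ones. Levels are given as CPM, counts scaled to a common library size with TMM factors; they are not corrected for gene length, so an order of genes by CPM is not an order of transcript numbers. A count of 0 in a control group allows a level of up to 0.0992 CPM in set 1 and 0.0912 CPM in set 2, taking 3 counts over the 3 libraries as the limit, and that limit covers counting error only. In whole thalli, fewer cells expressing a gene and less RNA per cell cannot be told apart.

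The member rule took a small tail of the silent genes. In the controls 2740 genes were at 0 in all 6 libraries. Of these, 1708 were also at 0 in all 6 double mutant libraries, 745 had 1 to 9 counts summed over the double mutants, 188 had 10 to 59 and 99 had at least 60. The members are 1.42% of the control-silent genes. The opposite pattern had no gene at all: 2133 genes were at 0 in all 6 double mutant libraries, and 0 of these had even 1 count in every control library.

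The members were chosen by their first-table counts in all 12 libraries, so their rise over the controls is a property of the choice and carries no test. Against the limit of 3 counts, levels were at least 15.8-fold to at least 577-fold higher in Mpez1-1 than in the set 1 controls (median bound 48.3). In Mpez1-2 they were at least 13.0-fold to at least 274-fold higher than in the set 2 controls, with a median bound close to that of set 1. These bounds use the double mutant level as counted and make no allowance for counting error or replicate spread on that side. All 39 passed the low-count filter through the double mutants and were called higher in both sets (edgeR, adjusted p under 0.05), where 26.5% of all tested genes were called higher in set 1 and 20.4% in set 2. Mean levels ran from 1.60 to 57.6 CPM in Mpez1-1 (median 4.81) and from 1.19 to 25.0 CPM in Mpez1-2 (median 4.58). The 10 members with the highest levels held 58.3% of the summed CPM of all 39. Summed over the members, levels were 273, 305 and 347 CPM in the 3 Mpez1-1 libraries and 268, 266 and 272 CPM in the 3 Mpez1-2 libraries.

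**Figure D1:**
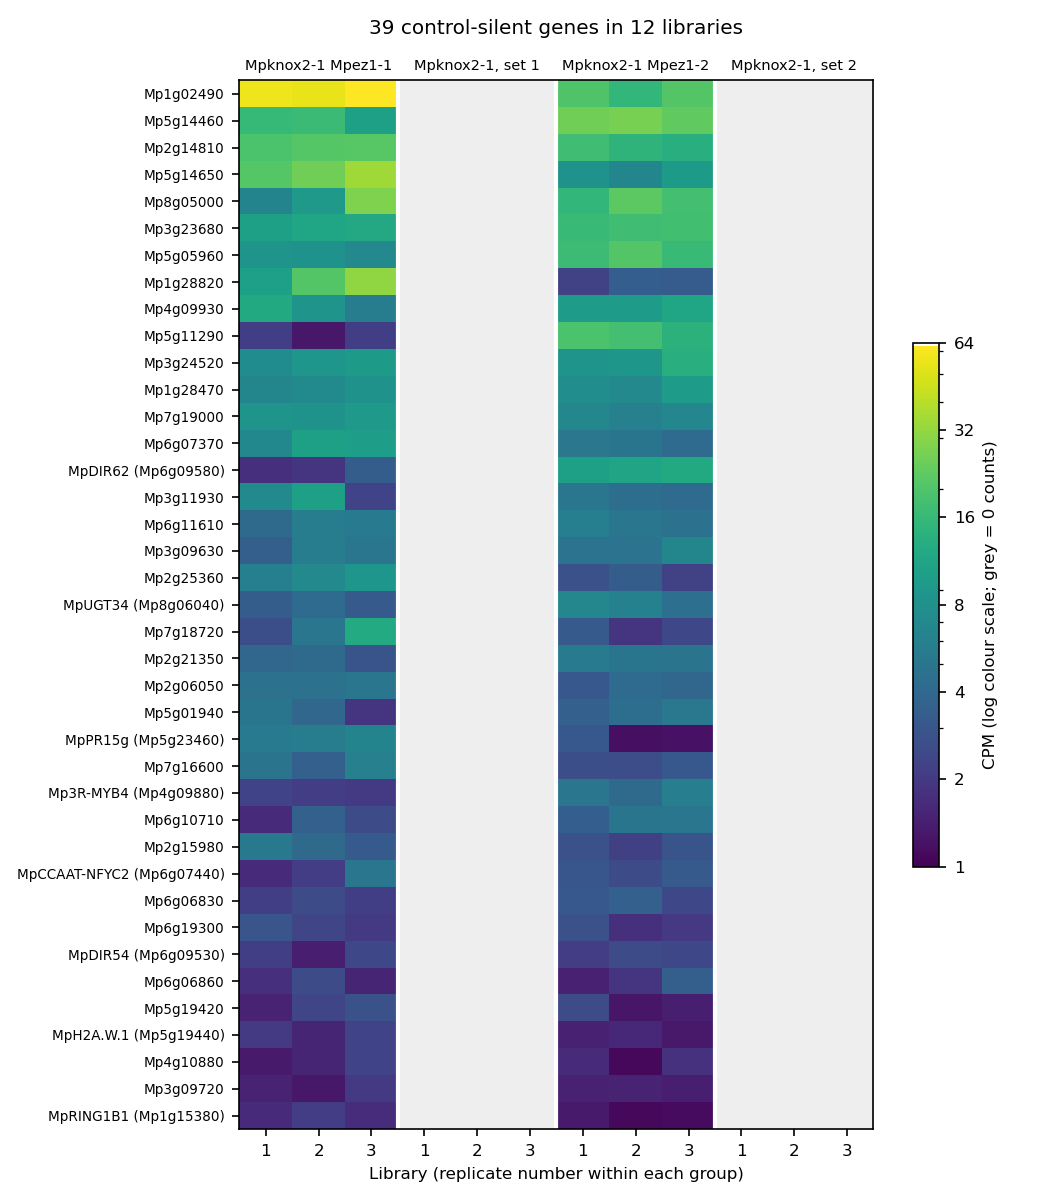
CPM of the 39 members (rows, ordered by mean level over the double mutants) in the 12 libraries (columns, 3 replicates per group), on a log colour scale with grey for 0 counts. All 6 control columns are grey by the rule; in the double mutants most rows lie under 10 CPM, and a few rows differ between Mpez1-1 and Mpez1-2.

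Identifiers of all 39 members were found in the reference gene table, and 8 of them have a symbol there; the other 31 have none and are given by identifier. Among the 8, genes with a role in chromatin or transcription come first. MpRING1B1 (Mp1g15380) is named for RING1B, a ubiquitin ligase of PRC1. It had 12, 18 and 11 counts in Mpez1-1 and 12, 11 and 12 counts in Mpez1-2, with 0 in every control, which is 1.82 ± 0.276 and 1.19 ± 0.134 CPM (SD, n = 3 each). Its counts lie close to the limit of 10 in both mutants.

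MpRING1B1 lies in a run of 3 consecutive identifiers with its namesakes. The middle gene, MpRING1B2, had 1 count in each Mpez1-1 library and 0 in the other 9 libraries. The next, MpRING1B3, had 31, 43 and 48 counts in Mpez1-1, 25, 39 and 27 counts in Mpez1-2 and 0 in the controls. Of the other PRC1 and PRC2 genes found by symbol, MpRING1A, MpBMI1, MpLHP1 and MpFIE were expressed in all groups and were not called in either set. Over that whole list, 9 of 16 names were found and 7 genes tested, of which MpE(z)1 was called lower in each set. The 2 called higher in each set were MpE(z)2 and MpRING1B3. Both met the rule for members and were left out by name, so their calls follow from the choice and nothing is read from them. MpE(z)2 had 24, 36 and 18 counts in Mpez1-1, 27, 20 and 21 counts in Mpez1-2 and 0 in the controls.

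MpH2A.W.1 (Mp5g19440) carries the name of H2A.W, a histone H2A variant that in flowering plants marks heterochromatin. It had 15, 13 and 15 counts in Mpez1-1 and 13, 16 and 14 in Mpez1-2, against 0 in the controls (1.96 ± 0.390 and 1.45 ± 0.128 CPM, SD, n = 3 each). The other gene of that name, MpH2A.W.2, was expressed in every library, at 60.6 ± 12.2 CPM in Mpez1-1 against 70.8 ± 8.55 in its controls and 82.1 ± 4.07 CPM in Mpez1-2 against 91.1 ± 1.54 in its controls (SD, n = 3 each), and was not called in either set. One H2A.W gene was thus present in all groups while the other was counted in the double mutants alone.

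Mp3R-MYB4 (Mp4g09880) belongs to the MYB transcription factors with 3 DNA-binding repeats, which in Arabidopsis control genes of mitosis. It had 17, 18 and 13 counts in Mpez1-1 and 45, 42 and 62 in Mpez1-2, so all 3 Mpez1-2 libraries lay above all 3 Mpez1-1 libraries. Of the 5 other genes of that name, Mp3R-MYB6 was also at 0 in all controls and had 49, 33 and 29 counts in Mpez1-1 and 48, 54 and 77 in Mpez1-2. Mp3R-MYB6 met the rule for members and was left out by name, so its rise follows from the choice and nothing is read from it. Mp3R-MYB1, which was expressed in the controls, fell by 0.61 on the log2 scale in Mpez1-1 (SE 0.17, edgeR adjusted p = 0.0174) and stood at a log2 fold change of -0.11 in Mpez1-2 (SE 0.10, adjusted p = 0.446). The remaining 3 had too few counts to be tested.

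MpCCAAT-NFYC2 (Mp6g07440) is named as a C subunit of NF-Y, the trimeric factor that binds CCAAT boxes. Its counts were 12, 18 and 33 in Mpez1-1 and 27, 26 and 34 in Mpez1-2. The third Mpez1-1 library, at 5.09 CPM, held more than the other two of its group together (1.62 and 2.13 CPM). The 4 other NFYC genes were expressed in the controls, and in each set 1 was called higher, 1 lower and 2 neither: MpCCAAT-NFYC4 rose and MpCCAAT-NFYC1 fell in Mpez1-1, and MpCCAAT-NFYC5 rose and MpCCAAT-NFYC3 fell in Mpez1-2.

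The 4 members with names of defence or secondary metabolism were 2 dirigent genes, a germin-like gene and a glycosyltransferase gene. MpDIR54 (Mp6g09530) and MpDIR62 (Mp6g09580) are named for dirigent proteins, which steer the coupling of phenolic radicals. MpDIR54 had 16, 12 and 16 counts in Mpez1-1 and 19, 26 and 26 in Mpez1-2. MpDIR62 had 13, 16 and 22 counts in Mpez1-1 and 93, 112 and 130 in Mpez1-2, a difference with no overlap between the alleles. They sit 5 identifier steps or fewer apart on chromosome 6, with MpDIR7 next to MpDIR54; MpDIR7 had 0, 9 and 8 counts in Mpez1-1 against 0, 0 and 1 in its controls, and 24, 18 and 23 counts in Mpez1-2 against 0 in its controls.

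The dirigent family as a whole is large and mostly expressed in the controls, where 4 of the 57 other MpDIR genes were at 0 in all 6 libraries. In Mpez1-1, 33 of the 48 tested were called higher and 5 lower, with a median log2 fold change of 1.69, where 26.5% of all tested genes were called higher and 24.1% lower. In Mpez1-2, 32 of the 50 tested were called higher and 1 lower, with a median of 0.97, where 20.4% of all tested genes were called higher and 17.4% lower. Several called higher passed the low-count filter through the double mutants, which favours such a call. The genes given here are examples and not a full list. In the set 1 controls MpDIR42 had 1, 0 and 0 counts, MpDIR41 0, 2 and 2, and MpDIR61 4, 4 and 2. MpDIR38 had 4, 2 and 0 there, MpDIR65 7, 6 and 1, MpDIR58 2, 1 and 3, and MpDIR18 1, 6 and 4. In the set 2 controls MpDIR7 had 0 counts, MpDIR42 0, 2 and 0, and MpDIR18 1, 2 and 3. How much of the family's shares and medians comes from such genes was not tested. The named examples are those with the smallest adjusted p in set 1: MpDIR35 rose by 3.37 and MpDIR33 by 4.20 on the log2 scale in Mpez1-1, and by 1.76 and 2.28 in Mpez1-2.

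MpPR15g (Mp5g23460) bears the name of pathogenesis-related family 15, the germin-like proteins. It had 40, 48 and 42 counts in Mpez1-1 and 28, 12 and 13 in Mpez1-2. In the first Mpez1-2 library its level, 3.13 CPM, was more than that of either of the other libraries of the group (1.19 and 1.23 CPM). Of the 10 other MpPR15 genes, 8 were tested in set 1 and all were called higher in Mpez1-1, and 7 were tested in set 2, of which 6 were called higher in Mpez1-2. Among all tested genes, 26.5% were called higher in Mpez1-1 and 20.4% in Mpez1-2. MpPR15f, MpPR15j and MpPR15l had no count in the set 1 controls and MpPR15f none in the set 2 controls, so these entered the test through the double mutants alone and had to come out higher. MpPR15f also met the rule for members and was left out by name. The other 5 called in Mpez1-1, MpPR15b, MpPR15c, MpPR15d, MpPR15e and MpPR15h, had 9 to 44 summed counts in the set 1 controls. Per set 1 control library, MpPR15b, MpPR15d and MpPR15h had 1 to 8 counts, and MpPR15e had 5, 2 and 14. They too passed the low-count filter through the double mutants, which favours a call of higher. The same holds in set 2 for MpPR15b, MpPR15d, MpPR15e and MpPR15l, with 0 to 10 counts per control library. MpPR15h stood at 58.9 ± 6.18 CPM in Mpez1-1 against 0.773 ± 0.146 in its controls, and at 31.4 ± 3.30 CPM in Mpez1-2 against 2.41 ± 1.12 in its controls (SD, n = 3 each). MpPR15c stood at 70.6 ± 15.2 CPM in Mpez1-1 against 1.497 ± 0.545 in its controls, and at 16.9 ± 2.49 CPM in Mpez1-2 against 2.18 ± 2.98 in its controls (SD, n = 3 each); its change in Mpez1-2 was not called (edgeR adjusted p = 0.0596).

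MpUGT34 (Mp8g06040) is named as a UDP-glycosyltransferase, an enzyme class that attaches sugars to small molecules. It had 25, 36 and 21 counts in Mpez1-1 and 61, 62 and 48 in Mpez1-2. The other 36 MpUGT genes moved in both directions: 18 of 30 tested were called higher and 4 lower in Mpez1-1, and 13 of 29 higher and 6 lower in Mpez1-2, beside the shares of all tested genes given for MpDIR (26.5% higher and 24.1% lower, and 20.4% and 17.4%). Among those called higher, MpUGT3 and MpUGT12 had no count in the set 1 controls. They entered the set 1 test through the double mutants alone and had to come out higher. MpUGT1, with 6, 3 and 6 counts in the set 2 controls, also entered that test through the double mutants. MpUGT5 rose by 3.85 in Mpez1-1 and 1.26 in Mpez1-2 on the log2 scale, while MpUGT19 fell by 4.04 and 2.10. With 7, 7 and 8 counts in Mpez1-1, MpUGT19 entered the set 1 test through the controls. How reads that fit several copies were counted is not given in the sources used here, so values within the MpDIR, MpPR15 and MpUGT families may share reads.

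**Figure D2:**
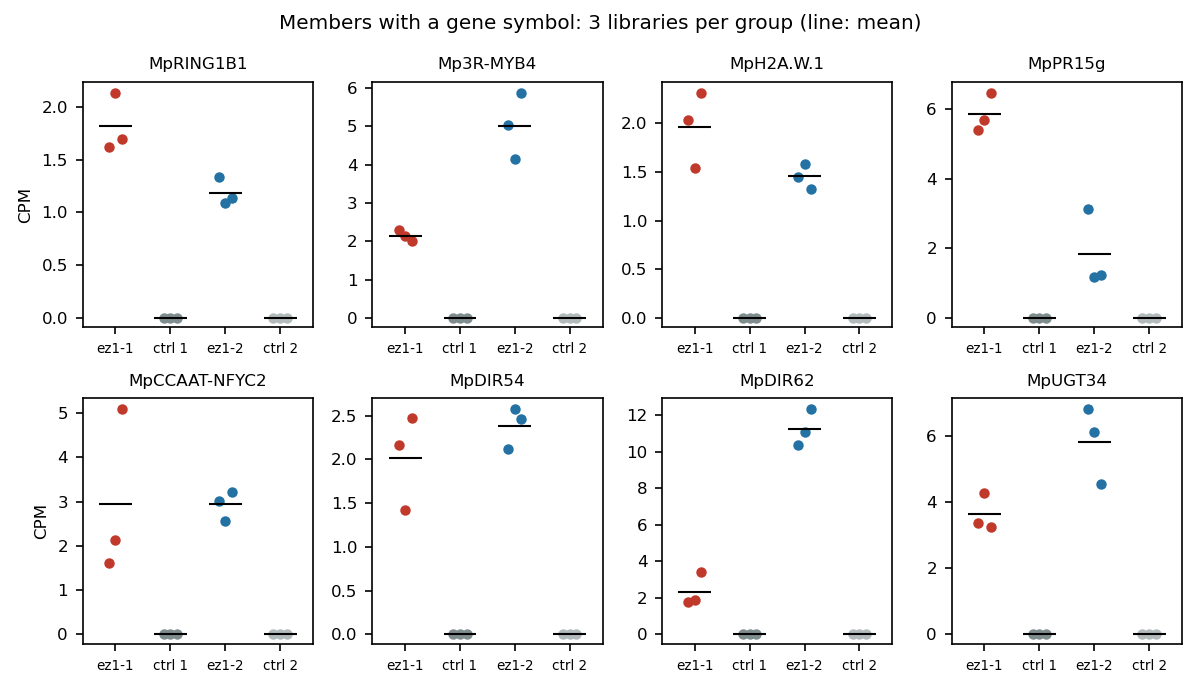
CPM of the 8 members with a gene symbol in the 3 libraries of each group (points; horizontal lines are means; y axes differ between panels and start at 0). All control points are at 0; Mp3R-MYB4, MpDIR62 and MpUGT34 are higher in Mpez1-2 and MpPR15g is higher in Mpez1-1, with no overlap of the 3 libraries in these 4 panels.

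Among the members without a symbol, Mp1g02490 had the highest CPM. It had 56.3, 54.3 and 62.3 CPM in Mpez1-1 and 19.99, 15.4 and 20.7 CPM in Mpez1-2, and was at least 577-fold and at least 205-fold higher than in the controls. Mp5g14460 followed, with 15.97, 16.8 and 10.5 CPM in Mpez1-1 and 25.5, 26.9 and 22.6 CPM in Mpez1-2. By mean CPM, Mp1g02490 was the highest of the 39 in Mpez1-1 and Mp5g14460 the highest in Mpez1-2.

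The other members among the 10 highest were Mp2g14810, Mp5g14650, Mp8g05000, Mp3g23680, Mp5g05960, Mp1g28820, Mp4g09930 and Mp5g11290. Mp2g14810 had 19.4, 20.98 and 21.3 CPM in Mpez1-1 and 17.4, 14.7 and 13.6 CPM in Mpez1-2. Mp8g05000 had 6.496, 9.36 and 27.9 CPM in Mpez1-1 and 15.3, 22.1 and 18.1 CPM in Mpez1-2, so its Mpez1-1 libraries spread on both sides of the Mpez1-2 ones. Mp4g09930 had 12.3, 8.53 and 5.70 CPM in Mpez1-1 and 9.60, 9.79 and 11.6 CPM in Mpez1-2, which also overlap.

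The rule asks for counts in both mutants but does not rank one above the other, so the members were compared directly, Mpez1-1 over Mpez1-2, in a fit over all genes. Of the 39 members 15 differed (edgeR, adjusted p under 0.05), 8 higher in Mpez1-1 and 7 higher in Mpez1-2, and 9 of the 15 by at least 2-fold. In the same fit 60.8% of all 12869 tested genes were called, and 56.2% of the 7301 genes whose summed counts lay within the members' range of 76 to 1831. The members' share was 38.5%. A member needs at least 10 counts in every library of both mutants, which limits how far the mutants can lie apart and was not asked of the other genes, so the shares and sizes given here for members and for all genes are values side by side and nothing is read from their difference. The median size of the difference was 0.46 on the log2 scale for the members and 0.52 for all genes. The 3 libraries of one mutant did not overlap those of the other for 20 members (51.3%), against 69.2% of all tested genes.

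Mp1g28820 had the largest difference in favour of Mpez1-1, with 10.3, 20.7 and 31.4 CPM there and 2.23, 3.46 and 3.32 CPM in Mpez1-2, which differ by 2.77 on the log2 scale (SE 0.43, edgeR adjusted p = 0.00100). Mp5g14650 had 21.1, 25.6 and 34.5 CPM in Mpez1-1 and 8.38, 6.63 and 9.57 CPM in Mpez1-2, a log2 difference of 1.72 (SE 0.21, edgeR adjusted p = 0.000155). MpPR15g differed by 1.68 (SE 0.37, edgeR adjusted p = 0.00367) and Mp1g02490 by 1.62 (SE 0.13, edgeR adjusted p = 7.87e-06). Mp2g25360 had 5.95, 6.99 and 8.79 CPM in Mpez1-1 and 2.79, 3.36 and 2.27 CPM in Mpez1-2, a log2 difference of 1.36 (SE 0.25, edgeR adjusted p = 0.00147). In each of these 5 genes every Mpez1-1 library lay above every Mpez1-2 library.

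In favour of Mpez1-2, Mp5g11290 stood furthest apart. It had 2.17, 1.30 and 2.16 CPM in Mpez1-1 and 19.4, 18.0 and 14.3 CPM in Mpez1-2, 9.27-fold more in Mpez1-2 (log2 fold change of Mpez1-1 over Mpez1-2 -3.21, SE 0.24, edgeR adjusted p = 5.03e-06). With 16, 11 and 14 counts in Mpez1-1, it was also near the limit of the rule on that side. MpDIR62 was 4.86-fold higher in Mpez1-2 (-2.28, SE 0.26, edgeR adjusted p = 7.94e-05) and Mp3R-MYB4 2.33-fold (-1.22, SE 0.24, edgeR adjusted p = 0.00224).

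Mp5g05960 had 8.53, 8.42 and 6.94 CPM in Mpez1-1 and 17.0, 20.6 and 16.3 CPM in Mpez1-2 (-1.17, SE 0.15, edgeR adjusted p = 0.000201), and the log2 fold change of Mp5g14460 was -0.79 (SE 0.17, edgeR adjusted p = 0.00343). The other called members differed by less than 1 on the log2 scale: Mp6g07370 (0.94), Mp7g16600 (0.75) and Mp2g14810 (0.43) were higher in Mpez1-1, and MpUGT34 (-0.68) and Mp3g23680 (-0.60) were higher in Mpez1-2. Mp7g16600 lost its call without library 1 or 3 of Mpez1-1 or any library of Mpez1-2 (0.55 to 0.82), with DESeq2 (0.76) and with library totals alone (0.45). Mp2g14810 lost it without library 2 of Mpez1-1 or library 2 or 3 of Mpez1-2 (0.34 to 0.41) and with library totals alone (0.13). MpUGT34 lost it without library 1 or 3 of Mpez1-1 or library 1 or 2 of Mpez1-2 (-0.64 to -0.56) and with DESeq2 (-0.67). The remaining 12 calls were kept under all 12 alternatives that were run. With library totals alone in place of TMM factors the median of all genes moved to -0.33, against -0.03, and the split of called members became 6 higher and 11 lower, against 8 and 7.

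**Figure D3:**
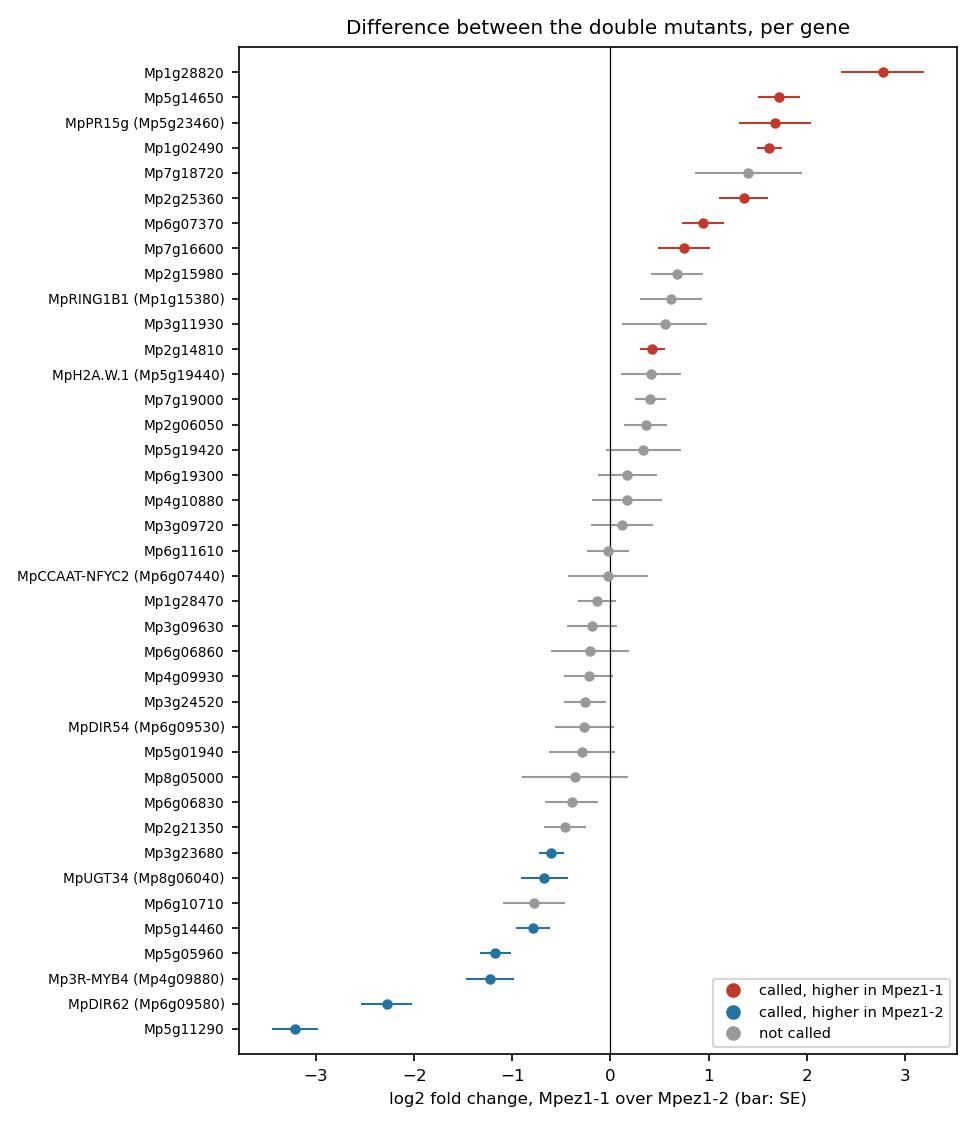
Log2 fold change of Mpez1-1 over Mpez1-2 for each of the 39 members (points, with the SE as bars), ordered by size; red marks genes called higher in Mpez1-1, blue genes called higher in Mpez1-2, grey genes not called (edgeR, adjusted p under 0.05). Called values run from -3.21 for Mp5g11290 to 2.77 for Mp1g28820, and 23 of the 24 grey points lie within 1 log2 unit of 0.

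The other 24 members, MpRING1B1, MpH2A.W.1, MpCCAAT-NFYC2 and MpDIR54 among them, were not called between the mutants. Mp7g18720 had the largest uncalled difference, with Mpez1-1 higher by 1.40 on the log2 scale (SE 0.54, edgeR adjusted p = 0.0553), with 2.71, 5.10 and 12.5 CPM in Mpez1-1 and 3.24, 1.88 and 2.46 CPM in Mpez1-2, so the groups overlapped. A missed threshold does not show that such genes were equal in the mutants. MpRING1B1 differed by 0.62 (SE 0.31, edgeR adjusted p = 0.116), and its libraries did not overlap.

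Replicates of Mpez1-1 were further apart than those of Mpez1-2. The coefficient of variation of the members' CPM had a median of 22.7% in Mpez1-1 (range 4.14 to 79.7%) and of 15.3% in Mpez1-2 (range 2.13 to 59.9%), and it was higher in Mpez1-1 for 25 of the 39. It passed 50% for 5 members in Mpez1-1, namely Mp8g05000, Mp7g18720, MpCCAAT-NFYC2, Mp3g11930 and Mp1g28820, and for 1 in Mpez1-2, MpPR15g. In the third Mpez1-1 library 21 members had their highest and 12 their lowest level of that group. Mp3g11930 is an example of the second kind, with 7.17, 10.4 and 2.31 CPM in Mpez1-1 and 5.03, 4.45 and 4.26 CPM in Mpez1-2. Over all genes, that library also stood furthest from its replicates, with a chi-square per degree of freedom of 30.3 and 21.7 against the first and the second, which differed from each other by 6.44.

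The limit of 10 counts falls within a continuum. The lowest members were Mp4g10880 and Mp6g06860, with a least count of 10, and MpRING1B1, Mp3g09720, Mp5g11290 and Mp5g19420, with a least count of 11; 19 of the 39 had a least count of 10 to 19. Just outside were 7 genes with 0 control counts and a least count of 8 or 9, such as MpBHLH8 with 12, 13 and 9 counts in Mpez1-1 and 12, 15 and 16 in Mpez1-2, and Mp1R-MYB19 with 28, 60 and 61 counts in Mpez1-1 and 9, 32 and 79 in Mpez1-2. Both are named as transcription factors, of the bHLH and MYB classes. A further 18 genes had at least 10 counts in every double mutant library and a single count over the 6 controls, among them MpPKS/CHS4, named for chalcone synthase-like enzymes, with 51, 67 and 20 counts in Mpez1-1 and 116, 140 and 134 in Mpez1-2.

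Members lay on all 8 autosomes by their identifiers, with 9 among the 2173 genes of chromosome 6 and 8 among the 2534 of chromosome 5. The other 6 chromosomes, of 1898 to 2917 genes, held 2 to 5 members each. The rule did not use position. For 11 members another gene that met the rule lay within 5 places in identifier order, and only Mp2g15980 was directly next to one.

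The genes on either side of the members, 76 in all, were not used in the choice and were tested in the same fits. Next to a member, 19 of 35 tested genes were called higher in Mpez1-1 (54.3%) and 2 lower, with a median log2 fold change of 1.30; among all tested genes with a standard identifier on chromosomes 1 to 8 the share was 26.5% and the median -0.02. In Mpez1-2, 28 of 39 tested neighbours were called higher (71.8%) and 3 lower, with a median of 1.75, beside 20.4% and -0.00 for all genes. Of the 33 neighbours tested in both sets, 17 were higher in both (51.5%), against 13.4% of all genes tested in both. Many of the 76 had too few counts to be tested, and counted over all 76 the shares called higher were 25.0% in Mpez1-1 and 36.8% in Mpez1-2, against 18.1% and 14.0% of all genes with such identifiers.

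A silent gene can pass the count filter through the double mutants alone and is then bound to come out higher, so neighbours with at least 1 CPM in the controls were counted apart. There, 8 of 23 (34.8%) were called higher in Mpez1-1, against 22.5% of all genes with at least 1 CPM in the controls. The median log2 fold change was 0.46 against -0.06. In Mpez1-2 it was 14 of 25 (56.0%), against 16.5%, with a median of 0.62 against -0.03. Above 1 CPM, neighbours and all genes were not matched for control level. Some neighbours called higher in Mpez1-2 lay near that limit in its controls, such as MpPPO34 (1.88 CPM) and MpPOD131 (2.12 CPM). Others lay further above it, such as Mp7g16590 (17.1 CPM). How much of the difference in shares comes from low control levels was not tested. At 0 in all 6 controls were 26 of the 76 neighbours (34.2%), against 10.6% of genes with standard identifiers, and 18 of those 26 had a count in a double mutant (69.2%, against 49.6%). These are descriptions of neighbouring genes, not tests of the neighbours as a list.

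The share called higher did not change evenly with distance. Of tested genes it was 55.9% in Mpez1-1 and 48.7% in Mpez1-2 at 2 places, 27.7% and 29.4% at 3 places, and 47.1% and 39.6% at 4 places. Counted over all genes at each distance, tested or not, it was 25.7% in both mutants at 2 places, 17.1% and 19.7% at 3 places, and 24 of 75 genes in Mpez1-1 and 25.3% in Mpez1-2 at 4 places. On that count the share in Mpez1-1 was higher at 4 places than next to a member (25.0%), while in Mpez1-2 the 36.8% next to a member was above the shares at 2, 3 and 4 places. Over 10 to 20 places the share was 27.3% and 19.1% of tested genes, and 19.5% and 13.6% of all genes.

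**Figure D4:**
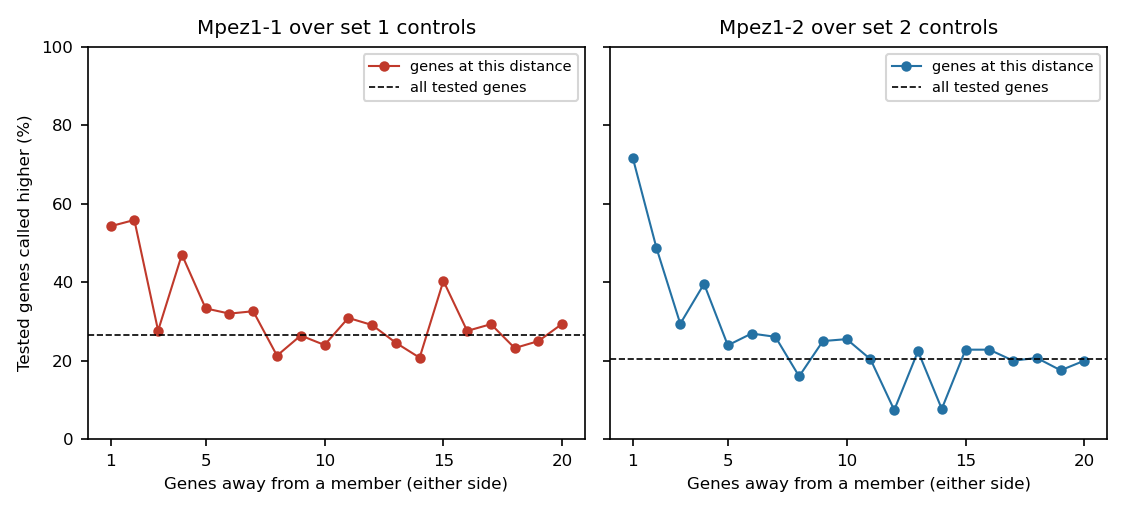
Percent of tested genes called higher (edgeR, adjusted p under 0.05) against the distance from a member in genes, either side counted, for Mpez1-1 over set 1 controls (left) and Mpez1-2 over set 2 controls (right); the dashed line is the share among all tested genes with a standard identifier. The share next to a member is 54.3% on the left and 71.8% on the right, and at 4 genes it is 47.1% and 39.6%; the dashed lines are at 26.5% and 20.4%.

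Mp7g16610, beside Mp7g16600, had the largest rise when neighbours were ranked by the smaller fold change of both sets. It had 20.4, 31.3 and 33.4 CPM in Mpez1-1 against 0.0973, 0 and 0.114 in its controls, and 15.6, 12.6 and 11.7 CPM in Mpez1-2 against 0 in its controls. The member itself had 4.87, 3.56 and 6.01 CPM in Mpez1-1 and 2.68, 2.67 and 3.13 in Mpez1-2. On its other side Mp7g16590, expressed in all groups, rose by 1.12 on the log2 scale in Mpez1-1 (SE 0.18, edgeR adjusted p = 0.00129) and by 1.03 in Mpez1-2 (SE 0.11, edgeR adjusted p = 5.79e-06).

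Mp5g14660, next to Mp5g14650, had 35, 86 and 73 counts in Mpez1-1 against 0, 0 and 1 in its controls, and 26, 22 and 17 counts in Mpez1-2 against 0 in its controls. MpCupin89, next to MpPR15g, had 35, 76 and 67 counts in Mpez1-1 against 0 in its controls, and 71, 40 and 56 in Mpez1-2 against 0, 0 and 1. Cupins are the fold family to which germin-like proteins belong. On the other side of MpPR15g, Mp5g23450 was at 0 in all 12 libraries.

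MpPPO34, named for polyphenol oxidases, lies between the members Mp5g19420 and MpH2A.W.1. It had 94.0 ± 2.77 CPM in Mpez1-1 against 4.14 ± 1.19 in its controls, and 36.0 ± 5.48 CPM in Mpez1-2 against 1.88 ± 1.44 in its controls (SD, n = 3 each). MpPOD131, a peroxidase gene by name on the far side of Mp5g19420, was called higher in both sets. It had 20, 16 and 22 counts in Mpez1-1 against 11, 5 and 3 in its controls. In set 1 it thus passed the low-count filter through the double mutants, which favours a call of higher. In Mpez1-2 it had 33, 49 and 70 counts against 28, 19 and 23 in its controls. MpPPO34 had counts in every control library, and both members beside it had none.

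Mp2g21350 is flanked by MpABCG29, named as an ABC transporter, and MpPPO15. MpABCG29 had 27, 73 and 23 counts in Mpez1-1 against 0 in its controls, and 17, 24 and 32 in Mpez1-2 against 0, 2 and 1. MpPPO15 stood at 15.2 ± 2.60 CPM in Mpez1-1 against 0.415 ± 0.235, and at 5.37 ± 1.11 CPM in Mpez1-2 against 0.121 ± 0.0521 (SD, n = 3 each). One place further out, Mp2g21330 was expressed in all groups, with 34.99 to 49.5 CPM in Mpez1-1 against 63.97 to 73.5 in its controls and 66.3 to 68.4 CPM in Mpez1-2 against 94.0 to 95.9 in its controls, and Mp2g21370 was near 0 in all.

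**Figure D5:**
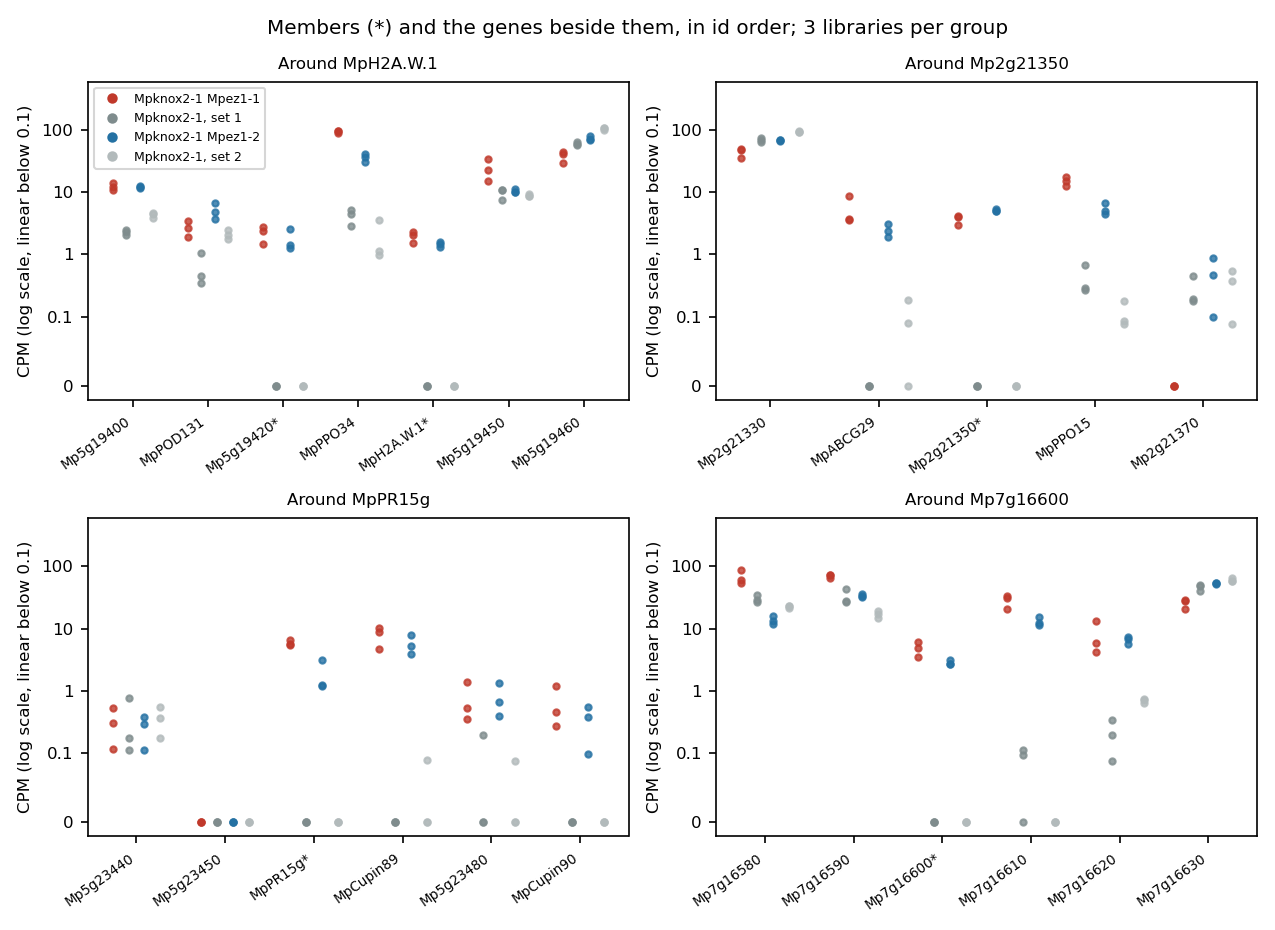
CPM per library (points, log scale that is linear below 0.1) of members (marked *) and the genes beside them in identifier order, for 4 runs chosen after their values were seen; red is Mpez1-1 and blue Mpez1-2, each with its controls in grey to its right. MpPPO34, MpPPO15, MpCupin89 and Mp7g16610 rise beside their members, while Mp5g23450 and Mp2g21370 stay at or near 0.

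Other neighbours were lower in the double mutants, silent throughout or not called. Mp4g10880 lies between MpWSD1, named for a wax ester synthase of Arabidopsis, and Mp4g10900, both well expressed in the controls and the 2 neighbours called lower in both sets. Mp4g10900 had 778 ± 111 CPM in Mpez1-1 against 1199.98 ± 101 in its controls, and 1363 ± 77.0 CPM in Mpez1-2 against 1754 ± 60.9 in its controls (SD, n = 3 each). MpWSD1 fell by 0.61 on the log2 scale in Mpez1-1 and by 0.28 in Mpez1-2. Without the second Mpez1-2 library the call of MpWSD1 in Mpez1-2 was lost (-0.23, edgeR adjusted p = 0.0559). Both neighbours of Mp6g19300 were at 0 in all 12 libraries. Beside Mp3R-MYB4, MpRBCS, the small subunit of Rubisco, was called higher in Mpez1-2 (log2 fold change 1.01, SE 0.08, edgeR adjusted p = 1.78e-06) and not in Mpez1-1 (0.70, SE 0.29, edgeR adjusted p = 0.0849).

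The second count table of each library, read as the opposite strand, held few counts for the members: 158 summed over the 6 double mutant libraries and 18 over the 6 controls. In the double mutants these were 0.708% to 1.43% of the members' first-table counts per library, against 1.72% to 2.22% for all genes. No member passed the low-count filter there, so 0 of 0 were tested, while 14.2% of all genes tested on that strand were called higher in Mpez1-1 and 10.8% in Mpez1-2. Mp1g02490 held the most, 11, 10 and 5 counts in Mpez1-1 against 0 in its controls, and 5, 14 and 19 counts in Mpez1-2 against 2, 1 and 0 in its controls. Of the 39 members, 32 had no opposite-strand count in the controls and 8 had none in any library.

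The 5 genes found of a list for the thallus and its organs had counts in every library. They summed to 505 to 818 CPM in Mpez1-1 against 427 to 453 in its controls. In Mpez1-2 they summed to 578 to 679 CPM against 347 to 395 in its controls. MpRBCS and MpC1HDZ make up most of these sums. MpC1HDZ was called higher in both sets, with means of 258 against 149 CPM in set 1 and 59.9 against 41.4 in set 2. Whether MpC1HDZ marks the thallus as a whole was not tested, so nothing on thallus identity is read from these sums. Of those 5 genes, 2 were called higher and 0 lower in Mpez1-1, and 2 higher and 1 lower in Mpez1-2. Among all tested genes, 26.5% were called higher and 24.1% lower in Mpez1-1, and 20.4% and 17.4% in Mpez1-2. The gene called lower was MpKAR, with mean levels of 29.5 CPM in Mpez1-2 against 44.4 in its controls. Its means in set 1 were 33.3 against 46.6 CPM, not called. MpRSL1 also had lower means in both mutants and was not called. The 8 egg and sporophyte genes summed to 13.2 to 15.7 CPM in Mpez1-1 against 5.35 to 6.75 in the controls, and to 12.7 to 17.5 CPM in Mpez1-2 against 3.93 to 5.81; 3 of the 8 were tested in each set, and of these MpBELL1 and MpBELL4, homeobox genes, were called higher in both sets and MpHD7 (listed as MpKNOX1B) in neither. No control library held more than 8 counts of MpBELL1 or more than 10 of MpBELL4. Both genes thus passed the low-count filter through the double mutants, which favours a call of higher. The homeobox genes MpKNOX1 and MpKNOX2 had too few counts to be tested. MpKNOX1 had 1, 4 and 2 counts in Mpez1-1 against 8, 7 and 8 in its controls, and 11, 6 and 8 counts in Mpez1-2 against 7, 4 and 6. MpKNOX2, the gene named in the mutation that all 12 libraries carry, had 9, 6 and 15 counts in Mpez1-1 against 0, 0 and 2, and 3, 8 and 4 counts in Mpez1-2 against 0 in its controls. MpBELL2 was at 0 in all 12 libraries. The 6 germ cell genes summed to 54.4 to 70.4 CPM in Mpez1-1 against 71.2 to 73.9, and to 90.03 to 103 CPM in Mpez1-2 against 118 to 120, with 2 called higher and 1 lower of 4 tested in Mpez1-1 and 0 higher and 1 lower of 3 tested in Mpez1-2. MpRKD makes up most of these sums and was the one called lower in both sets, with 47.8 ± 8.29 CPM in Mpez1-1 against 66.0 ± 2.46, and 89.5 ± 6.70 CPM in Mpez1-2 against 113 ± 1.34 (SD, n = 3 each). The 2 called higher in Mpez1-1 were MpGCS1, with 63, 79 and 52 counts against 29, 37 and 38 in its controls, and MpBNB. MpBNB had 11, 19 and 16 counts in Mpez1-1 and 10, 14 and 4 in Mpez1-2, where it was not tested, against 0 in all 6 controls, so its call follows from the filter. In Mpez1-2, MpGCS1 was not called, with 35, 29 and 37 counts against 41, 41 and 32. MpPRM, the protamine-like gene of sperm, had 0 counts in Mpez1-1 and 2 in Mpez1-2, and 0 in the controls. The 2 oil body genes found, MpERF13 and MpSYP12B, were called higher in both sets, and summed to 17.0 to 19.4 CPM in Mpez1-1 against 7.88 to 8.46, and to 14.7 to 19.8 CPM in Mpez1-2 against 11.8 to 12.3. The part of other cell types in the members' levels was not tested.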

How the data were processed

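RNA of 14-day thalli was poly(A)-selected and sequenced from directional libraries, per the labels' protocols. The authors deposited raw counts per gene and per transposable element (TE) copy in 2 tables for each of 12 libraries, 24 tables in all. The submitters' processing notes name Trim Galore and STAR, without versions. Not given in the sources used here are the counting tool, how it treated reads with several positions, and the build. The column headings of set 2 carry an added name, Tak2, whose meaning there is not given. The second tables were read as the opposite strand from their gene values and naming.

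The test was edgeR's robust quasi-likelihood F test on the deposited counts (edgeR 4.0.16, R 4.3.3), after a low-count filter (minimum count 10, minimum total 15), with TMM factors over genes and TE copies of the libraries in a fit (of all 12 for CPM) and Benjamini-Hochberg adjustment over all genes tested, at 0.05. Fits of 6 libraries set each double mutant against its own controls, and the mutants against each other. An SE is the absolute log2 fold change divided by the square root of the F statistic. Opposite-strand counts used the sizes and factors of the first tables. Neighbours are the nearest standard identifiers by number, leaving out members and the genes left out by name. Symbols came from the reference gene table of assembly MpTak2_v7.1, used only for names: 17624 identifiers matched and 3088 had a symbol. No sequences were used.

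Genes were named by a rule: members with a symbol, the 10 highest by mean CPM, up to 5 called in each direction between the mutants, those nearest the count limit, up to 3 neighbours called in each direction in both sets, and 2 examples per symbol family. Other members and neighbours were named after their values were seen. The members, lists and rules were chosen with earlier results of these data known. Replicates are biological, per the labels, and no pair agreed within counting noise (chi-square per degree of freedom 2.69 to 30.3). The fits were tested on simulated data. Alternatives were other scalings, DESeq2 1.42.0, no filter, a replicate block, each library left out, and other limits of the rule.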

Additional observations from a re-analysis of the deposited data

Results flagged for a closer look

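Between the double mutants, 15 members differed by edgeR's test of Mpez1-1 over Mpez1-2 (adjusted p under 0.05), and in all 15 the 3 libraries of one mutant lay apart from the 3 of the other. Log2 fold changes were 2.77 for Mp1g28820, 1.72 for Mp5g14650, 1.68 for MpPR15g, 1.62 for Mp1g02490 and 1.36 for Mp2g25360. Smaller differences toward Mpez1-1 were 0.94 for Mp6g07370, 0.75 for Mp7g16600 and 0.43 for Mp2g14810. Toward Mpez1-2 they were -3.21 for Mp5g11290, -2.28 for MpDIR62, -1.22 for Mp3R-MYB4 and -1.17 for Mp5g05960. Smaller ones toward Mpez1-2 were -0.79 for Mp5g14460, -0.68 for MpUGT34 and -0.60 for Mp3g23680. Allele and set cannot be told apart in these values. The 15 were 38.5% of the members, beside 60.8% of all tested genes called in the same fit. Libraries of the mutants did not overlap for 51.3% of the members, beside 69.2% of all tested genes. Nothing is read from the difference of these shares.

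A few TE copies, which the comparisons of genes did not use, also met the count rule. Of 89262 copies, 8 in the first tables and 11 in the second had 0 counts in all 6 controls and at least 10 in each double mutant library. Among the 19441 genes, 51 met that rule. The reverse pattern was held by 0 copies in either. The second tables held more TE counts than the first, 822460 against 82437 in the first Mpez1-1 library. Which strand they hold for TE copies is thus not known. The most abundant was a Copia copy of the first tables, with 229, 263 and 188 counts in Mpez1-1 and 1028, 1188 and 1195 in Mpez1-2. Of the second tables it was a DTM-class DNA transposon copy, with 795, 1102 and 1216 counts in Mpez1-1 and 240, 256 and 248 in Mpez1-2.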

How the results depend on the processing

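The number of members depends on the limit of the rule: 64 genes qualified with a least count of 5 and 20 with a least count of 20, and 40 to 44 when a library was left out. Members differing between the mutants numbered 12 to 16 when a library was left out. Genes called numbered 5137 to 6245 in set 1 and 3828 to 4968 in set 2. Neighbours called higher numbered 19 to 20 in set 1 and 26 to 30 in set 2. Without the low-count filter, genes silent in the controls are tested too. Then 29 of 66 neighbours were called higher in set 1 (43.9%) and 40 of 64 in set 2 (62.5%). With DESeq2 it was 26 of 66 in set 1 (39.4%) and 34 of 64 in set 2 (53.1%). On the opposite strand, where no member could be tested, 1 member (Mp1g02490) was called in each set by DESeq2 and without the filter, and 0 to 1 when a library was left out. The sign of MpCCAAT-NFYC2 between the mutants (main log2 fold change -0.03, not called) reversed to 0.000176 with DESeq2 and ranged from -0.64 to 0.26 when a library was left out, being positive without any 1 of 3 libraries (0.05, 0.17 and 0.26). Of 348 values of single genes 327 kept direction and call, 17 lost the call and 4 were those reversals. Calls were lost under 7 of 12 settings for Mp7g16600, 5 for MpUGT34 and 4 for Mp2g14810. Library totals in place of TMM, tried after the data were seen, moved the split of called genes between the mutants to 2761 higher and 6238 lower, against 3898 and 3929. Replicate numbers are shared by the groups, but same-numbered libraries did not deviate together (correlations -0.07 to 0.10); with the replicate block 16 members differed, 8 each way, with 20 and 27 neighbours called higher. Depth limits the members near 10 counts: the SE of the log2 difference between the mutants was 0.36 for Mp4g10880 and 0.40 for Mp6g06860.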

Other observations

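Among the genes just short of the rule, Mp1g26530 and Mp2g09725 had no count in the controls and were unequal in the double mutants. Mp1g26530 had 81, 144 and 466 counts in Mpez1-1 and 8, 12 and 9 in Mpez1-2, a log2 difference of 5.06 (SE 1.07, edgeR adjusted p = 0.0111). Mp2g09725 had 14, 38 and 239 counts in Mpez1-1 and 12, 13 and 8 in Mpez1-2, a log2 difference of 3.65 that was not called (SE 1.37, edgeR adjusted p = 0.0686). In both genes the third Mpez1-1 library held the most. They were chosen after their values were seen.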
